A study of Mus musculus with 16 samples.

Results

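Glutamate receptors and the auxiliary subunits that travel with them are described here as a set of 32 listed genes, measured in the hippocampus of wild-type and CBP-deficient mice kept in standard or enriched cages. Each gene was read by its single-symbol probe set in the deposited table, taking the brightest where a gene had more than 1. Of the 32 genes 31 were measured, among 19935 genes in all; the remaining gene, Grin1, was not analysed here. The 31 genes fall into 4 AMPA receptor subunits, 5 kainate receptor subunits, 5 NMDA receptor subunits, 6 metabotropic receptors, 1 delta receptor, 6 TARPs, 2 cornichons and 2 Neto proteins. All animals were females aged 3 months, from an F2 cross that mixed C57BL/6J with DBA. The mutants (cbp+/-) were heterozygous for CBP deficiency, and the controls were wild-type littermates. The groups were wild type in standard cages (5 arrays), wild type after 2 weeks of environmental enrichment (3 arrays), cbp+/- in standard cages (5 arrays) and cbp+/- after 2 weeks of enrichment (3 arrays). Enrichment meant group life in a larger box whose toys, tubes and wheels were moved about, so exercise is part of it, and the hippocampi were taken at least 16 h after the box had last been rearranged. Each array held a pool of RNA from 4 mice, so the 16 arrays stand for 64 mice, and an array can show neither single animals nor single cells. An array name such as CBP_EE_3 gives the genotype, then the housing (EE is enrichment and SC the standard cage), then the number of the replicate.

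Fast excitation in the hippocampus runs through ionotropic glutamate receptors, which are tetramers: AMPA receptors built from Gria subunits carry most of the current, NMDA receptors built from Grin subunits let in calcium and start synaptic plasticity, and kainate receptors built from Grik subunits act at both sides of the synapse. Metabotropic receptors (Grm) are G-protein-coupled and tune release and excitability. TARPs (Cacng genes) and cornichons (Cnih genes) bind AMPA receptors and set their traffic and gating, and Neto proteins do so for kainate receptors. CBP, the protein made from Crebbp, is a lysine acetyltransferase that works as a coactivator of CREB and of many other transcription factors. CREB binds the cAMP response element, or CRE, whose full form is TGACGTCA.

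Because the study lowers a coactivator of CREB, the promoter windows of the genes were searched for the full CRE, for its 5-letter core TGACG and, for comparison, for the GC box GGGCGG, each on both strands. The windows run from 250 bases before to 50 after a RefSeq start site (300 bases, build GRCm38.p6), and 20 of the 31 genes had at least 1 window, 25 windows in all. The other 11 could not be searched: Gria1, Gria3, Grik1, Grin2a, Grin2b, Grin3a, Grm4, Grm5, Grid1, Cacng4 and Neto1. None of the 25 windows held TGACGTCA, against 1.79% of all 32851 RefSeq windows. The core TGACG was found in 2 of 25 windows (8%), against 20.8% of all windows, and those 2 belong to Grik2 and Grm8. GC boxes were found in 14 of 25 windows (56%), against 35.7% of all windows, and the median GC content was 63.7% in the windows of these genes against 52.7% over all windows. The windows of Grm7 overlap and share a GC box. Counted by gene, GC boxes were found in 13 of 20 (65%), against 38.2% of all genes with a window. The 3 windows printed are those of Grik3 (chr4:125490446-125490745, plus strand) and Grm3 (chr5:9725303-9725602, minus strand), the pair of genes with the lowest paired p-values for genotype, and of Grik2 (chr10:49788705-49789004, minus strand), a gene near the top of each housing comparison. Capitals mark GC boxes and the CRE core on either strand.
Grik3: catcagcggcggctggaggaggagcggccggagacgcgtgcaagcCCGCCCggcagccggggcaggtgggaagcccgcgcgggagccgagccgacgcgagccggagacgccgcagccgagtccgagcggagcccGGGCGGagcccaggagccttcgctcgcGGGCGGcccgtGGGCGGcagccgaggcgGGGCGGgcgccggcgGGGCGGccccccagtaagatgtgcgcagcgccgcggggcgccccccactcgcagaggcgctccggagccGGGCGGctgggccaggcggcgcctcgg
Grm3: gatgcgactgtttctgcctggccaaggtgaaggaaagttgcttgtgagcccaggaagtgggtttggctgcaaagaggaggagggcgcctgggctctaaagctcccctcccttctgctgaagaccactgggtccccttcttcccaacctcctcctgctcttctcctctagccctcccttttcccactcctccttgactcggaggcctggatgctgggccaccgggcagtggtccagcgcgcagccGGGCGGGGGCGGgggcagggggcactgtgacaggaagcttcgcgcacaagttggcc
Grik2: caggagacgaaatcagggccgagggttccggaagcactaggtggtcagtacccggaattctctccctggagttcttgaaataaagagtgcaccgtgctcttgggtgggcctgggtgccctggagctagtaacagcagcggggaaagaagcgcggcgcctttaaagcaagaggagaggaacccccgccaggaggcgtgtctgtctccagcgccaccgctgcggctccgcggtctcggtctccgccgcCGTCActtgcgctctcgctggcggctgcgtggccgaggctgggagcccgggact
The Grik3 window held 7 GC boxes, the Grm3 window held 2 and the Grik2 window held none, while Grik2 held 1 CRE core, read on the opposite strand as CGTCA. A match of letters is a description of the window and shows no binding.

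Over all 21780 single-symbol probe sets, limma called none in any of the 7 comparisons at an adjusted p of 0.05 (Benjamini-Hochberg over all of them). Levels here are log2 of the deposited intensity, and differences are on that log2 scale. Median signal per array was 76.7 to 85.5 on the deposited linear scale. The arrays fell into 4 sets when clustered on their deviations from the group means: replicates 1 and 2 of every group (set 1), SC_3 of both genotypes (set 2), SC_4 of both genotypes (set 3), and SC_5 with EE_3 of both genotypes (set 4). The median correlation of arrays was 0.996 within and 0.986 between sets. Another way of clustering put EE_1 and EE_2 with SC_4, so the sets are a description and not a recorded batch. Within a housing, arrays of the same number in both genotypes deviated together, with a correlation of 0.26 to 0.77 over 8 pairs. In 6 of the 8 pairs the same number was the closest match of the wild-type array. Crebbp itself, measured by 1 probe set, was not lower on the cbp+/- arrays: its group means were 9.43 (wild type, standard), 9.26 (wild type, enriched), 9.57 (cbp+/-, standard) and 9.36 (cbp+/-, enriched), a genotype difference of 0.12 (SE 0.081, adjusted p = 0.999). Which part of the transcript the mutant allele leaves was not analysed here.

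The glutamate receptor genes varied along the same arrays in both genotypes. Their median deviation from the gene mean was highest on SC_3 (0.16 in wild type, 0.18 in cbp+/-) and lowest on SC_5 (-0.10 and -0.23) and EE_3 (-0.15 and -0.14). CBP_SC_5 was the lowest of its 5 arrays for 21 of the 31 genes and WT_SC_5 for 14. EE_3 was the lowest of 3 arrays for 20 genes in each genotype. The shares of all probe sets with these lowest arrays were not taken. Over the 16 arrays, the median deviation of 22 receptor scaffold and trafficking genes correlated with that of the 31 genes at 0.91. The correlation was 0.85 for glutamate transport genes, 0.75 for pan-neuronal genes, -0.24 for CA3 and CA2 genes and 0.023 for all probe sets. The pattern is therefore not particular to the receptor genes. Within-group spread (residual SD, log2) had a median of 0.20 over the 31 genes, with a range from 0.081 for Cacng2 to 0.40 for Cnih2, and was 0.19 over probe sets at or above the median signal.

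**Figure D1:**
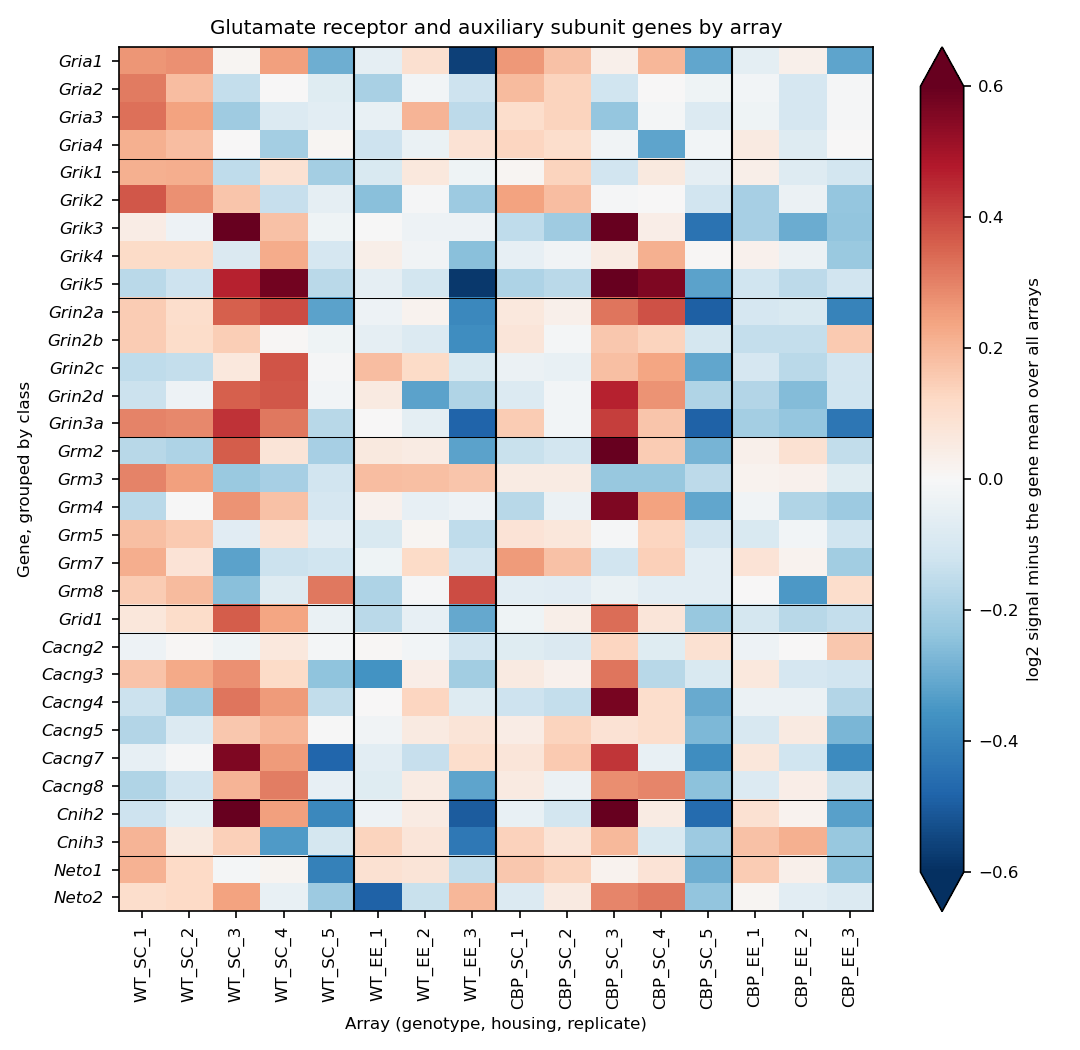
Heat map of the 31 genes (rows, grouped by class) on the 16 arrays (columns, grouped by genotype and housing), coloured by log2 signal minus the gene mean over all arrays. The columns SC_3 are mostly red and the columns SC_5 and EE_3 mostly blue in each genotype, with medians of 0.16 and 0.18 on SC_3 and of -0.10 and -0.23 on SC_5.

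A split among the genes ran along the replicate numbers and was alike in both genotypes, which share no array and no animal. The mean of standard-cage replicates 3 and 4 minus the mean of replicates 1 and 2 was positive in both genotypes for 15 genes, negative in both for 11 and of opposite sign for 5, so 83.9% had the same sign, against 65.6% of all 21780 probe sets; with quantile normalization it was 87.1% of the 31. The comparison was chosen after the values were seen. The share among probe sets at or above the median signal, where 30 of the 31 genes lie, was not taken, so the pattern is not shown to be particular to these genes. Higher on replicates 3 and 4 were Grik5 (0.66 in wild type and 0.78 in cbp+/-), the high-affinity kainate subunit, Cnih2 (0.63 and 0.48), a cornichon, Grik3 (0.46 and 0.53), Cacng4 (0.46 and 0.47) and Grin2d (0.44 and 0.42). Lower on them were Grm3 (-0.48 and -0.28) and all 4 AMPA subunits, from Gria1 (-0.14 and -0.10) to Gria3 (-0.43 and -0.24). What these differences within a group come from was not tested.

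**Figure D2:**
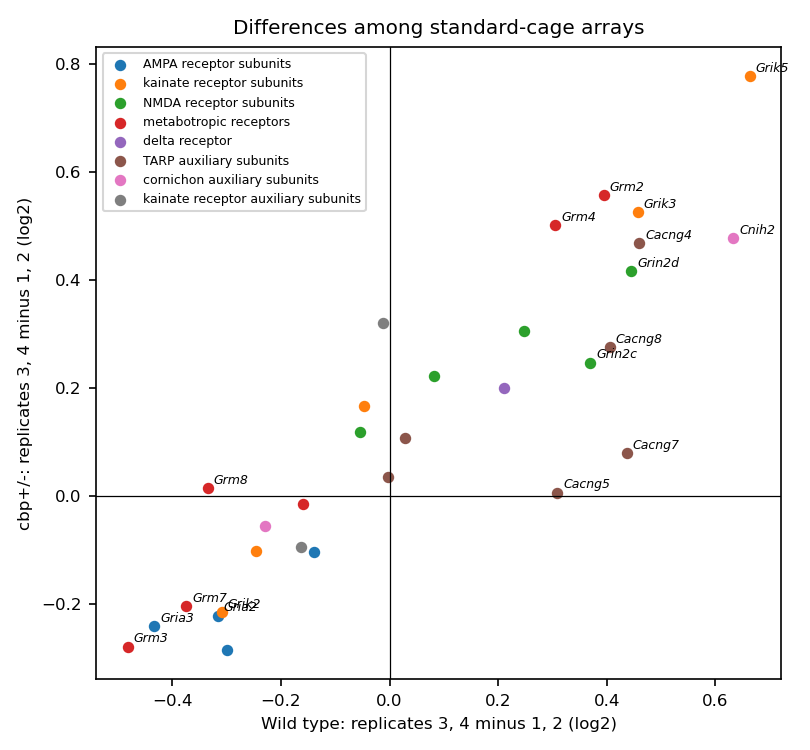
Each point is 1 of the 31 genes: the mean of standard-cage replicates 3 and 4 minus the mean of replicates 1 and 2 (log2) in wild type on the x axis and in cbp+/- on the y axis, coloured by class. Of the points 15 lie above 0 on both axes and 11 below 0 on both, with Grik5 and Cnih2 at the upper right and Grm3 and the AMPA subunits at the lower left.

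The question of the housing comparison is whether 2 weeks of enrichment changed the expression of these genes. In wild type 25 of the 31 genes were lower after enrichment, with a median of -0.13 log2, where 41.6% of all probe sets were lower and the median was 0.029. In cbp+/- 27 of the 31 were lower, with a median of -0.11, where 45% of all probe sets were lower and the median was 0.0096. None of the 31 passed the adjusted p of 0.05 in either genotype, as for all probe sets (0% called). At an unadjusted p under 0.05 there were 5 genes in wild type, all lower (Grid1, Grin2b, Grik2, Grin3a and Cacng3; 16.1% of the 31, against 3.72% of all probe sets lower and 14.1% higher at that p, 17.8% in all), and 0 in cbp+/- (1.29% of all probe sets lower, 2.82% in either direction). Of the 31 genes 30 lie at or above the median signal of all probe sets, and among such probe sets 67.7% were lower in wild type (median -0.068) and 58.1% in cbp+/- (median -0.026). At the unadjusted p under 0.05, 734 of these 10890 probe sets were lower in wild type and 249 higher. In cbp+/- 240 of them were lower at that p and 75 higher. With quantile normalization the median over the 31 genes was -0.057 in wild type with 19 lower and -0.082 in cbp+/- with 27 lower. Bulk tissue cannot tell fewer cells of a type from less RNA per cell.

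**Figure D3:**
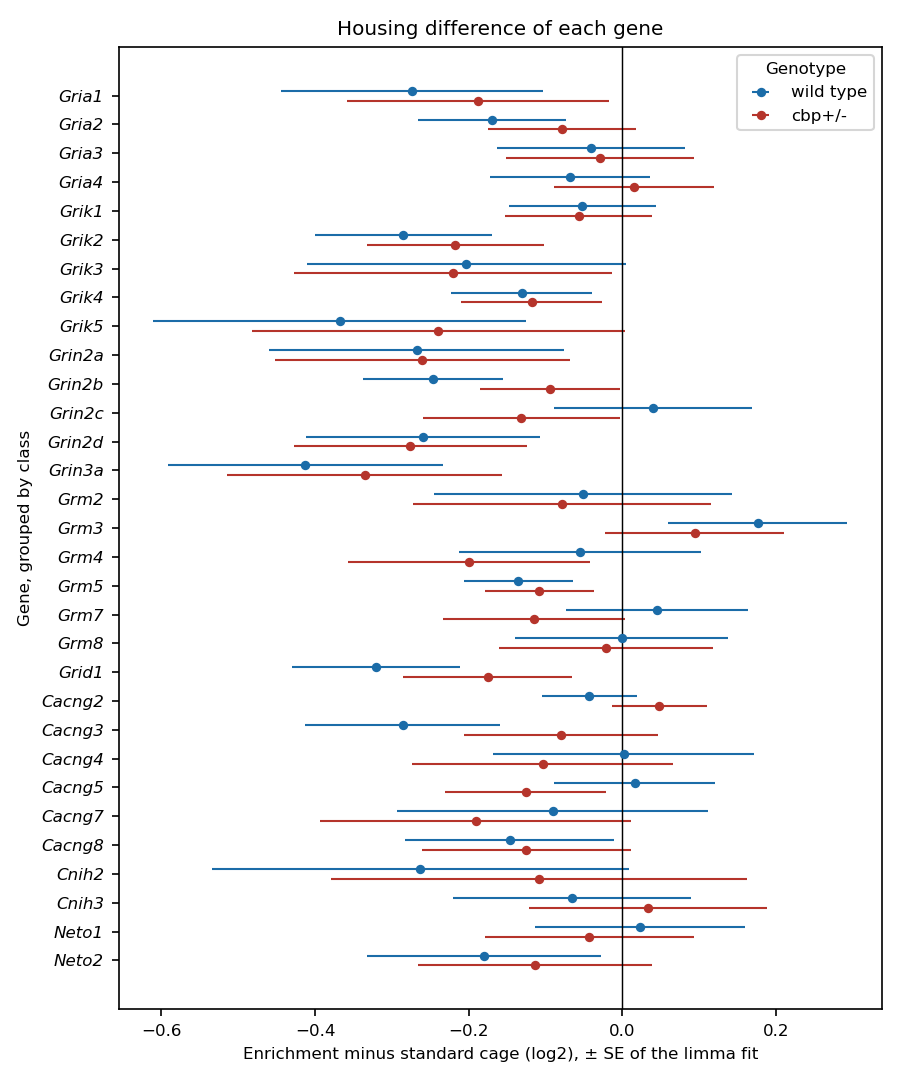
Enrichment minus standard cage (log2) for each of the 31 genes, in wild type (blue) and cbp+/- (red), with bars of ± 1 SE of the limma fit. Most points lie below 0 (25 of 31 in wild type and 27 of 31 in cbp+/-), Grm3 lies above 0 in both, and the bars of the genotypes overlap for most genes.

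The array sets, which were made from the same values that are tested, changed what passed. Arrays were put in a set because they deviate alike, which makes the spread within a set small. An SE or adjusted p within a set, here and below, therefore describes that set and is no separate test of housing. Within set 1, which holds replicates 1 and 2 of each group (8 arrays, 4 residual degrees of freedom), 11 of the 31 genes were lower in enriched wild type at an adjusted p under 0.05 and 3 were higher, where 13.8% of all probe sets were lower and 16.1% higher. The 11 were Gria1, Gria2, Gria4, Grik1, Grik2, Grin2b, Grin3a, Grm5, Grid1, Cacng3 and Neto2, and the 3 were Grin2c, Grm2 and Cacng4. The interquartile range of log2 signal over probe sets was 2.58 and 2.55 on WT_SC_1 and WT_SC_2. It was 2.22 and 2.37 on WT_EE_1 and WT_EE_2. In cbp+/- these ranges were 2.49 and 2.47 against 2.43 and 2.37. Their part in the counts was not tested, and shares among probe sets at or above the median signal were not taken within set 1. In cbp+/- none of the 31 passed within set 1, nor did any of all probe sets (0%); that the genotypes differ there was not shown, since Grin3a, for instance, was at -0.29 in cbp+/- and -0.32 in wild type. Averaged over genotypes 10 were lower and 2 higher within set 1, where 11.6% of all probe sets were lower and 13.5% higher. Within set 4, which gives 1 array against 1 per genotype and no test, the median was -0.088 in wild type and 0.071 in cbp+/-. So the set with replicate numbers 1 and 2 and the set with SC_5 and EE_3 gave opposite signs of the median in cbp+/-, where set 1 gave -0.093.

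AMPA receptor subunits had 4 of 4 values below 0 in enriched wild type, those of Gria3 and Gria4 smaller than their SE. Gria1, the subunit that synaptic potentiation adds to synapses, read 11.52, 11.53, 11.27, 11.50 and 10.96 on wild-type standard-cage arrays 1 to 5 and 11.20, 11.35 and 10.69 on enrichment arrays 1 to 3. In cbp+/- it read 11.52, 11.43, 11.28, 11.46 and 10.94 in standard cages and 11.19, 11.28 and 10.94 after enrichment. SC_5 and EE_3 were the lowest of their groups in both genotypes, and the housing groups overlapped. The difference was -0.27 (SE 0.17, adjusted p = 0.413) in wild type and -0.19 (SE 0.17, adjusted p = 0.999) in cbp+/-. It was close to that size in wild type within both sets (-0.25 (SE 0.069, adjusted p = 0.0294) in set 1 and -0.27 in set 4), but in cbp+/- it was -0.23 in set 1 and -0.0059 in set 4. Gria2, the subunit that keeps AMPA receptors closed to calcium, read 11.55, 11.42, 11.09, 11.24 and 11.16 in wild type against 11.04, 11.22 and 11.11 after enrichment. Its cbp+/- values were 11.43, 11.37, 11.12, 11.24 and 11.21 in standard cages and 11.22, 11.13 and 11.23 after enrichment. Standard-cage replicates 1 and 2 stood above all other arrays in both genotypes. The differences were -0.17 (SE 0.10, adjusted p = 0.369) and -0.078 (SE 0.10, adjusted p = 0.999), and within set 1 that of wild type was -0.35 (SE 0.077, adjusted p = 0.0141), but -0.052 within set 4. Gria3 went from 10.30 ± 0.23 (SD, n = 5) to 10.26 ± 0.18 (n = 3) in wild type and from 10.24 ± 0.15 to 10.22 ± 0.051 in cbp+/-. Gria4 went from 9.10 ± 0.17 to 9.03 ± 0.11 and from 9.03 ± 0.18 to 9.05 ± 0.067. Both enriched means lay within the range of the standard-cage arrays. Their wild-type differences were -0.041 (SE 0.12) and -0.068 (SE 0.10), which turned to 0.028 and 0.018 with quantile normalization. That of Gria4 was -0.28 (SE 0.064, adjusted p = 0.0158) within set 1 and 0.076 within set 4.

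Kainate receptor subunits were lower after enrichment in each genotype, 5 of 5, with medians of -0.20 and -0.22. Within set 1 not all 5 were lower. There Grik5 was at 0.060 in wild type and 0.035 in cbp+/-, and Grik4 at -0.11 and 0.030. Grik1 to Grik3 were below 0 in both. Grik2, a pore-forming kainate subunit of CA3 and dentate granule cells, read 9.66, 9.56, 9.45, 9.15 and 9.23 in wild-type standard cages and 9.03, 9.27 and 9.06 after enrichment. In cbp+/- it read 9.53, 9.47, 9.28, 9.29 and 9.17 in standard cages and 9.09, 9.25 and 9.05 after enrichment. EE_1 and EE_3 lay below every standard-cage array of their genotype, while EE_2 lay inside the standard-cage range. The difference was -0.29 (SE 0.12, adjusted p = 0.224) in wild type, 1.22-fold lower, and -0.22 (SE 0.12, adjusted p = 0.999) in cbp+/-. Within sets it was -0.46 (SE 0.091, adjusted p = 0.0111) (set 1) and -0.17 (set 4) in wild type, and -0.33 and -0.12 in cbp+/-, so its sign was the same in each. Averaged over genotypes it was -0.25 (SE 0.082, adjusted p = 0.169).

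Grik3, another pore-forming kainate subunit, read 7.77, 7.70, 8.48, 7.90 and 7.70 in wild-type standard cages and 7.73, 7.70 and 7.70 after enrichment. Grik3 on cbp+/- arrays read 7.58, 7.52, 8.38, 7.77 and 7.29 in standard cages and 7.53, 7.43 and 7.49 after enrichment. SC_3 stood above all other arrays in each genotype. The housing difference was -0.20 (SE 0.21) and -0.22, smaller than its spread within the standard-cage groups. Grik5, whose subunits join Grik1 to Grik3 to raise glutamate affinity, went from 9.17 ± 0.37 to 8.80 ± 0.29 and from 9.16 ± 0.46 to 8.92 ± 0.024, with SC_3 and SC_4 the highest arrays. Grik4 went from 8.56 ± 0.14 to 8.43 ± 0.15 and from 8.54 ± 0.10 to 8.43 ± 0.13. Grik1 went from 7.03 ± 0.20 to 6.98 ± 0.079 and from 7.001 ± 0.10 to 6.94 ± 0.076, in each case within the standard-cage spread.

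NMDA receptor subunits had the lowest medians among the classes with over 1 gene, -0.26 in wild type and -0.26 in cbp+/-. Grin2b, the subunit of slow NMDA currents that is most prominent in the young brain, read 10.21, 10.17, 10.20, 10.06 and 10.03 in wild-type standard cages and 10.004, 9.98 and 9.68 after enrichment. The 3 enriched arrays lay below all 5 standard-cage arrays, which 2% of all probe sets also did, while 9.16% lay above. In cbp+/- no gene of the 31 had enriched arrays all below (1.25% of all probe sets). There Grin2b read 10.13, 10.04, 10.22, 10.19 and 9.95 in standard cages and 9.91, 9.92 and 10.21 after enrichment, and here EE_3 was among the highest. The difference was -0.25 (SE 0.091, adjusted p = 0.198), 1.19-fold lower, in wild type and -0.094 (SE 0.091, adjusted p = 0.999) in cbp+/-. It was -0.20 (SE 0.056, adjusted p = 0.0321) within set 1 in wild type, -0.17 within set 1 in cbp+/- and 0.26 within set 4 in cbp+/-. Without WT_EE_3 the wild-type difference was -0.14. Grin2a, the subunit that gives faster NMDA currents in the adult, read 10.44, 10.40, 10.65, 10.69 and 9.97 in standard cages and 10.26, 10.31 and 9.91 after enrichment in wild type. Grin2a on cbp+/- arrays read 10.36, 10.32, 10.62, 10.67 and 9.80 in standard cages and 10.19, 10.20 and 9.89 after enrichment. SC_5 and EE_3 were low and SC_3 and SC_4 high in each genotype, so the groups overlapped. The differences were -0.27 (SE 0.19, adjusted p = 0.482) and -0.26 (SE 0.19, adjusted p = 0.999).

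Grin3a, a subunit that lowers the calcium flow of NMDA receptors, had the lowest housing difference of the 31 genes in wild type. It read 7.63, 7.61, 7.76, 7.65 and 7.16 in standard cages and 7.33, 7.27 and 6.85 after enrichment. Grin3a on cbp+/- arrays read 7.48, 7.31, 7.74, 7.49 and 6.84 in standard cages and 7.12, 7.10 and 6.90 after enrichment. SC_5 was as low as the enriched arrays in each genotype, and the other 4 standard-cage arrays lay above all enriched ones. The difference was -0.41 (SE 0.18, adjusted p = 0.250) in wild type, 1.33-fold lower, and -0.34 (SE 0.18, adjusted p = 0.999) in cbp+/-. Within set 1 it was -0.32 (SE 0.067, adjusted p = 0.0127) in wild type and -0.29 in cbp+/-, and within set 4 it was -0.31 and 0.052. Without WT_EE_3 the wild-type difference was -0.26. Grin2d, an NMDA subunit mostly of interneurons in the adult, read 6.49, 6.58, 6.97, 6.99 and 6.60 in standard cages and 6.67, 6.29 and 6.44 after enrichment in wild type. Grin2d on cbp+/- arrays read 6.53, 6.60, 7.08, 6.89 and 6.43 in standard cages and 6.44, 6.35 and 6.49 after enrichment. SC_3 and SC_4 were the high arrays. The differences were -0.26 (SE 0.15) and -0.28 (SE 0.15), and within set 1 they were -0.055 and -0.17. Grin2c, found in astrocytes and cerebellar granule cells, read 7.12, 7.13, 7.34, 7.65 and 7.27 in standard cages and 7.46, 7.39 and 7.18 after enrichment in wild type. Grin2c on cbp+/- arrays read 7.24, 7.23, 7.45, 7.51 and 6.96 in standard cages and 7.17, 7.11 and 7.16 after enrichment. Its housing difference was 0.040 and -0.13, and 0.30 (SE 0.055, adjusted p = 0.00922) within set 1 in wild type, where SC_1 and SC_2 were its lowest arrays, against -0.088 within set 4.

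Metabotropic receptors had housing medians of -0.026 in wild type and -0.093 in cbp+/-. Grm5, the Gq-coupled receptor of the postsynaptic side, read 10.89, 10.86, 10.64, 10.79 and 10.64 in standard cages and 10.61, 10.72 and 10.55 after enrichment in wild type. Grm5 on cbp+/- arrays read 10.79, 10.77, 10.70, 10.83 and 10.59 in standard cages and 10.61, 10.68 and 10.58 after enrichment. In wild type EE_1 and EE_3 lay below all standard-cage arrays and EE_2 among them, and in cbp+/- EE_3 was the lowest array by a small margin. The differences were -0.14 (SE 0.071, adjusted p = 0.330) and -0.11 (SE 0.071, adjusted p = 0.999), small but of the same sign in each array set: -0.21 and -0.089 in wild type and -0.13 and -0.0068 in cbp+/-. Grm3, a Gi-coupled receptor of astrocytes and neurons, alone of the 31 was higher by more than 0.05 in both genotypes. It read 9.83, 9.78, 9.31, 9.34 and 9.42 in standard cages and 9.72, 9.72 and 9.70 after enrichment in wild type. Grm3 on cbp+/- arrays read 9.58, 9.58, 9.31, 9.31 and 9.38 in standard cages and 9.55, 9.56 and 9.46 after enrichment. The enriched arrays lay between the high standard-cage pair, SC_1 and SC_2, and the 3 low ones. The difference of 0.18 (SE 0.12) in wild type turned to -0.088 within set 1, and that of 0.095 in cbp+/- to -0.028. Within set 4 they were 0.28 and 0.088. With the other array sets as a block the wild-type difference was 0.30, and Grm3 was called higher there in wild type and averaged over genotypes.

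Grm7, a presynaptic receptor of low glutamate affinity, read 9.12, 8.98, 8.58, 8.77 and 8.78 in standard cages and 8.88, 9.02 and 8.79 after enrichment in wild type. Grm7 on cbp+/- arrays read 9.16, 9.08, 8.79, 9.04 and 8.84 in standard cages and 8.98, 8.92 and 8.69 after enrichment. Grm8, a presynaptic receptor of the same group, read 7.24, 7.27, 6.84, 7.01 and 7.40 in standard cages and 6.90, 7.08 and 7.48 after enrichment in wild type. Grm8 on cbp+/- arrays read 7.02, 7.02, 7.05, 7.02 and 7.02 in standard cages and 7.09, 6.74 and 7.19 after enrichment. Its 5 cbp+/- standard-cage arrays lay within a narrow band, with an SD of 0.011 against 0.23 in wild type. For both genes the housing groups overlapped, with differences of 0.045 and -0.12 for Grm7. Grm2, which limits transmitter release at mossy fibres, went from 8.17 ± 0.24 to 8.12 ± 0.21 in wild type and from 8.26 ± 0.39 to 8.18 ± 0.12 in cbp+/-. Grm4 went from 6.54 ± 0.18 to 6.48 ± 0.039 and from 6.56 ± 0.35 to 6.36 ± 0.10. Within set 1 Grm2 was higher in enriched wild type by 0.23 (SE 0.053, adjusted p = 0.0178), with SC_1 and SC_2 among its low arrays, and at -0.12 within set 4.

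The delta receptor Grid1, which binds cerebellin and neurexin across the synapse and conducts little current, had the smallest p of the 31 genes in wild type. It read 8.36, 8.40, 8.66, 8.53 and 8.26 in standard cages and 8.13, 8.25 and 7.99 after enrichment, and the 3 enriched arrays lay below all 5 others. In cbp+/- it read 8.27, 8.33, 8.63, 8.37 and 8.07 in standard cages and 8.19, 8.13 and 8.15 after enrichment, and SC_5 lay below the enriched arrays. The difference was -0.32 (SE 0.11, adjusted p = 0.177) in wild type, 1.25-fold lower, with an interval of -0.55 to -0.086, and -0.18 (SE 0.11, adjusted p = 0.999) in cbp+/-. Within set 1 it was -0.19 (SE 0.062, adjusted p = 0.0449) and -0.14, and within set 4 it was -0.27 and 0.087. With the sets as a block it was -0.21 (SE 0.054, adjusted p = 0.0703) in wild type. Grid1 was called lower with the other array sets as a block and with array weights, in wild type and averaged over genotypes. Averaged over genotypes without the block it was -0.25 (SE 0.077, adjusted p = 0.162).

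**Figure D4:**
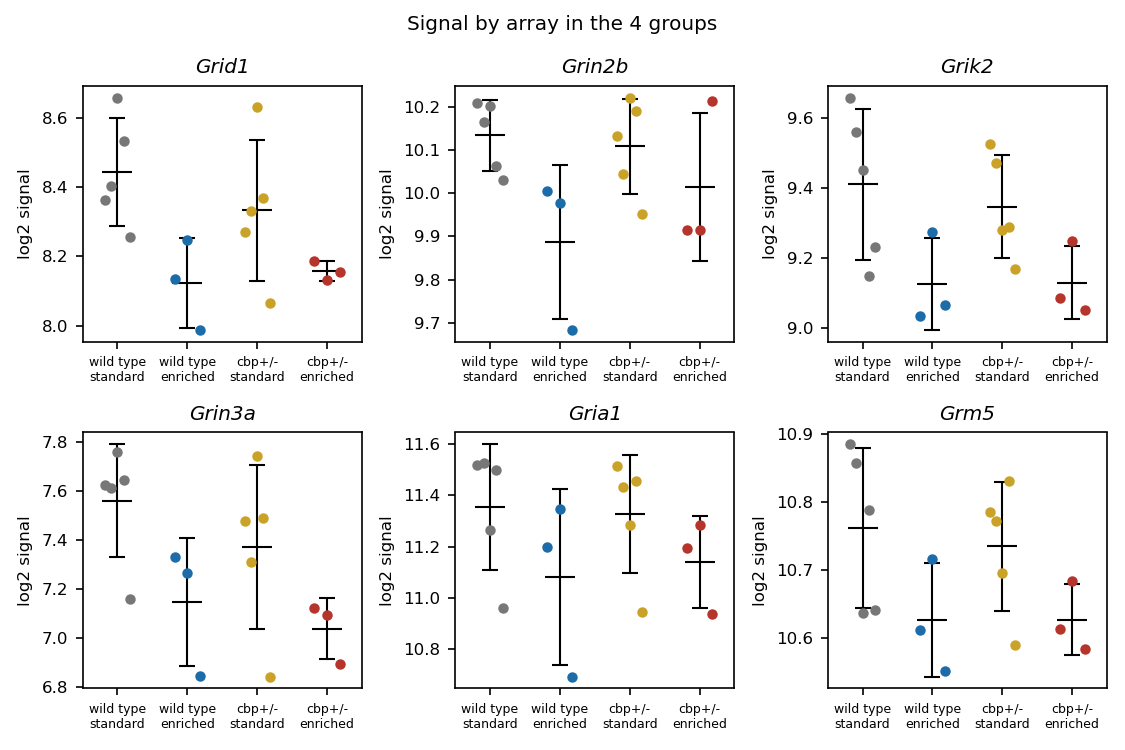
log2 signal on every array (dots, in replicate order) of Grid1, Grin2b, Grik2, Grin3a, Gria1 and Grm5 in the 4 groups, with the mean and ± 1 SD in black. In wild type the enriched dots of Grid1 and Grin2b lie below all standard-cage dots, and those of the other 4 genes overlap with them.

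TARPs split by gene. Cacng8, the main TARP of the hippocampus, read 9.09, 9.16, 9.48, 9.58 and 9.22 in standard cages and 9.20, 9.32 and 8.95 after enrichment in wild type. Cacng8 on cbp+/- arrays read 9.32, 9.24, 9.55, 9.56 and 9.03 in standard cages and 9.19, 9.31 and 9.14 after enrichment. SC_3 and SC_4 were its highest arrays in each genotype. The differences were -0.15 (SE 0.14, adjusted p = 0.596) and -0.12 (SE 0.14, adjusted p = 0.999), but that of wild type was 0.14 within set 1 and -0.27 within set 4. Cacng3, a TARP of forebrain neurons, read 8.98, 9.04, 9.09, 8.93 and 8.57 in standard cages and 8.45, 8.85 and 8.60 after enrichment in wild type. Cacng3 on cbp+/- arrays read 8.87, 8.84, 9.13, 8.64 and 8.72 in standard cages and 8.88, 8.71 and 8.70 after enrichment. Its lowest wild-type arrays were EE_1 and SC_5. The differences were -0.29 (SE 0.13, adjusted p = 0.256) and -0.080 (SE 0.13, adjusted p = 0.999), with -0.36 (SE 0.12, adjusted p = 0.0479) in set 1 and 0.031 in set 4 for wild type. Cacng2, or stargazin, varied least of the 31 genes and read 8.47, 8.51, 8.48, 8.57 and 8.49 in standard cages and 8.51, 8.49 and 8.39 after enrichment in wild type. Cacng2 on cbp+/- arrays read 8.43, 8.42, 8.63, 8.43 and 8.60 in standard cages and 8.47, 8.51 and 8.67 after enrichment. It was the sole gene with a further probe set, and that gave 0.14 (SE 0.13) in wild type where the brighter one gave -0.043 (SE 0.062), so its housing sign depends on the probe set. Cacng5, a TARP with weak effects on receptor traffic, read 6.96, 7.05, 7.30, 7.34 and 7.14 in standard cages and 7.11, 7.19 and 7.21 after enrichment in wild type. Cacng5 on cbp+/- arrays read 7.18, 7.27, 7.22, 7.24 and 6.87 in standard cages and 7.04, 7.19 and 6.86 after enrichment, with overlapping groups. Cacng4 went from 7.21 ± 0.25 to 7.21 ± 0.10 and from 7.21 ± 0.34 to 7.11 ± 0.080. Cacng7 went from 8.96 ± 0.38 to 8.87 ± 0.12 and from 8.95 ± 0.29 to 8.76 ± 0.22, within the standard-cage spread.

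Cornichons and Neto proteins had enriched means within the range of the standard-cage arrays. Cnih2, which slows the closing of hippocampal AMPA receptors, went from 10.44 ± 0.47 to 10.18 ± 0.30 in wild type and from 10.38 ± 0.44 to 10.27 ± 0.22 in cbp+/-, with SC_3 highest in each genotype. Cnih3 went from 8.27 ± 0.22 to 8.21 ± 0.31 and from 8.30 ± 0.17 to 8.33 ± 0.24. Neto1, which anchors kainate receptors at mossy fibre synapses, went from 10.41 ± 0.23 to 10.43 ± 0.13 and from 10.44 ± 0.18 to 10.40 ± 0.20. Neto2 went from 8.38 ± 0.18 to 8.20 ± 0.34 and from 8.41 ± 0.24 to 8.29 ± 0.049, and in set 1 its wild-type difference was -0.42 (SE 0.11, adjusted p = 0.0222), while within set 4, which holds WT_EE_3, its highest enriched wild-type array, it was 0.42.

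The genotype comparison asks whether less CBP changed these genes in either housing. In standard cages 22 of 31 genes were lower in cbp+/-, with a median of -0.023, where 46.3% of all probe sets were lower; after enrichment 15 of 31 were lower, with a median of 0.0003, where 58.3% of all probe sets were lower. Averaged over housings 18 of 31 were lower (56.7% of all probe sets). Among probe sets at or above the median signal these shares were 47.6%, 38.2% and 39.9%. None passed in either housing (0% of all probe sets called), and in the fit that leaves the replicate numbers out none had an unadjusted p under 0.05, where 0.987% of all probe sets did in standard cages, 5.23% after enrichment and 3.91% averaged over housings. In standard cages no gene had groups that did not overlap (0.0872% of all probe sets all below), and after enrichment Grm3, Grin2c and Grik3 had all 3 cbp+/- arrays below all 3 wild-type arrays, as did 6.85% of all probe sets. The smallest p in standard cages was that of Grm7, 0.13 (SE 0.10, adjusted p = 1.00), higher in 5 of 5 same-numbered arrays, followed by Grin3a at -0.19 (SE 0.15), Grid1 at -0.11 and Grik3 at -0.21. After enrichment it was that of Grm3, -0.19 (SE 0.13, adjusted p = 0.935), followed by Grin2c at -0.19 (SE 0.14), Cacng2 at 0.088 and Grin2b at 0.13.

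Same-numbered arrays of the genotypes deviate together, so the genotype difference was also taken within each number. Grik3 was lower in cbp+/- in 8 of 8 pairs: the differences were -0.19, -0.18, -0.10, -0.13 and -0.42 in standard cages and -0.20, -0.27 and -0.21 after enrichment, a mean of -0.21 ± 0.10 (SD, n = 8). Grm3 was lower in 8 of 8 pairs too, by -0.25, -0.20, -0.0039, -0.031 and -0.044 and -0.16, -0.16 and -0.24, a mean of -0.14 ± 0.10; its differences on SC_3 to SC_5 were small. Grin2a was lower in 8 of 8 pairs by -0.089, -0.072, -0.036, -0.010 and -0.17 and -0.071, -0.11 and -0.017, a mean of -0.072 ± 0.053. These are 3 of the 31 genes, where 0.927% of all probe sets were lower in 8 of 8 pairs and 1.02% higher, and with quantile normalization it was 1 of 31, Grik3, where 1.15% of all probe sets were. Grin3a was lower in 7 of 8 pairs, with a mean of -0.16 ± 0.13. In a limma fit with the replicate block of these pairs, the genotype difference averaged over housings was -0.21 (SE 0.039, adjusted p = 0.203) for Grik3, -0.15 (SE 0.037, adjusted p = 0.245) for Grm3, -0.15 (SE 0.046, adjusted p = 0.292) for Grin3a and -0.072 (SE 0.031, adjusted p = 0.418) for Grin2a, against -0.21 (SE 0.15, adjusted p = 0.999) for Grik3 without the block. In that fit 4 of 31 genes (12.9%) had an unadjusted p under 0.05 averaged over housings, against 11.7% of all probe sets. In standard cages there were 5 of 31 (16.1%), against 4.39% of all probe sets: Grik3 at -0.21 (SE 0.048, adjusted p = 0.776), Grin3a at -0.19 (SE 0.056, adjusted p = 0.855), Grm7 at 0.13 (SE 0.049, adjusted p = 1.00), Grid1 at -0.11 (SE 0.047, adjusted p = 1.00) and Grm3 at -0.10 (SE 0.046, adjusted p = 1.00). After enrichment there were 2 of 31 (6.45%), against 13% of all probe sets: Grik3 at -0.22 (SE 0.062, adjusted p = 0.305) and Grm3 at -0.19 (SE 0.059, adjusted p = 0.312). None of the 21780 probe sets passed the adjusted threshold in any of the 3. Grm8 (-0.13, SE 0.10) and Grin2c (-0.11, SE 0.091) were the next by p without the block, and each was lower in 5 of 8 pairs.

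**Figure D5:**
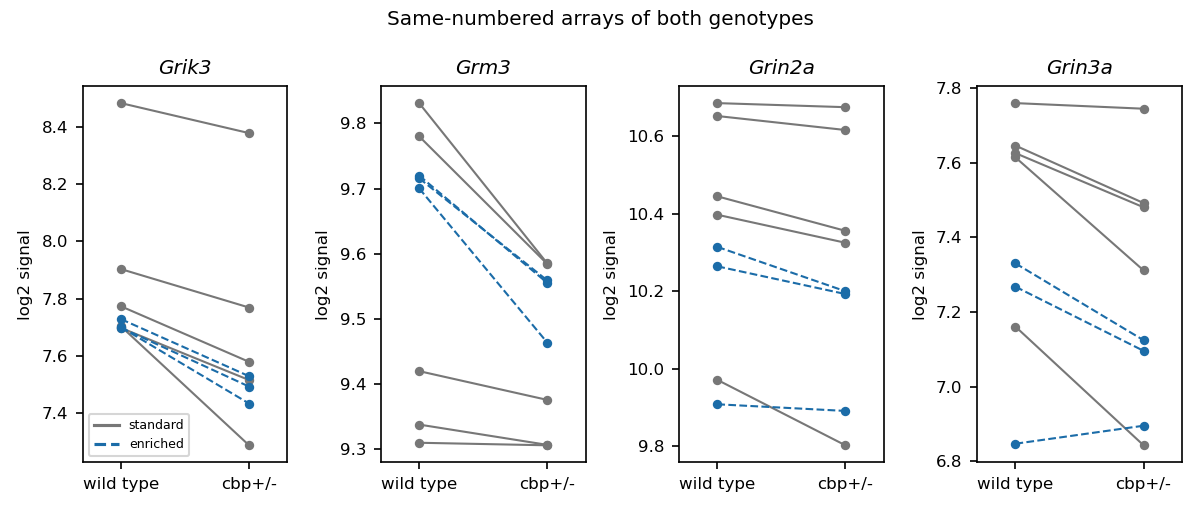
log2 signal of Grik3, Grm3, Grin2a and Grin3a on the wild-type and cbp+/- arrays of the same replicate number, joined by a line (grey, 5 standard-cage pairs; blue and dashed, 3 enriched pairs). All 8 lines slope down for Grik3, Grm3 and Grin2a and 7 of 8 for Grin3a, and the levels of the lines differ more than their ends do.

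Whether enrichment acted differently in the genotypes was tested by the interaction, the cbp+/- housing difference minus that of wild type. None of the 31 genes passed (0% of all probe sets called), and none had an unadjusted p under 0.05 (2.66% of all probe sets in either direction). The interaction was below 0 for 13 of 31, against 57.5% of all probe sets and 37.8% of those at or above the median signal. The smallest p was that of Grin2b, with 0.15 (SE 0.13, adjusted p = 1.00, interval -0.12 to 0.43), followed by Cacng3 at 0.21 (SE 0.18), Cacng2 at 0.091 (SE 0.087) and Cacng5 at -0.14 (SE 0.15). For Grin2b the value rests on EE_3, which was the lowest wild-type array and the highest enriched cbp+/- array; without SC_5 and EE_3 of both genotypes it was -0.063. A housing difference nearer 0 in cbp+/- was therefore not shown for any of the 31 genes. Averaged over genotypes, 29 of 31 were lower after enrichment, against 41.1% of all probe sets and 65% of those at or above the median signal, with a median of -0.12 where those of the 2 backgrounds were 0.021 and -0.046; none passed (0%). At an unadjusted p under 0.05 there were 6, all lower (19.4%, against 5.73% of all probe sets lower, 13.4% higher and 19.1% in all): Grid1, Grik2, Grin3a, Grin2b, Grin2d and Grm5. Of the 10890 probe sets at or above the median signal 1142 were lower at that p and 300 higher. The difference was -0.37 (SE 0.13, adjusted p = 0.177) for Grin3a and -0.17 (SE 0.064, adjusted p = 0.197) for Grin2b.

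Other genes of glutamatergic synapses gave medians on the same side in wild type, and no list had a gene past the adjusted threshold in any comparison. Among all probe sets at or above the median signal 67.7% were lower after enrichment in wild type and 58.1% in cbp+/-. Among 22 measured scaffold and trafficking genes of the receptors, 18 were lower after enrichment in wild type (median -0.15) and 16 in cbp+/- (median -0.12), led by p in wild type by Homer1, higher by 0.28 (SE 0.083), Camk2b at -0.38 and Dlgap1 at -0.35. Among 16 measured genes of glutamate transport and metabolism 15 were lower in wild type (median -0.12) and 11 in cbp+/- (median -0.087), with Got2, a mitochondrial aminotransferase, at -0.29 (SE 0.11). Among 20 other receptor and AMPA receptor complex genes 13 were lower in wild type (median -0.048) and 10 in cbp+/- (median -0.0008). Marker lists of cell types were read in the same way, with the level of a list on an array taken as the median deviation of its genes from their means. The 10 pan-neuronal genes had medians of -0.19 in wild type (7 of 10 lower) and -0.052 in cbp+/-, with a level per array from -0.043 to 0.19 in wild-type standard cages and from -0.16 to -0.039 after enrichment. The 11 oligodendrocyte genes had medians of -0.16 and 0.0024, and the 12 astrocyte genes -0.11 and -0.033. The 12 dentate granule cell markers had medians of -0.015 and -0.19, and 11 of 12 were lower in enriched cbp+/- than in enriched wild type (median -0.17). In that comparison 58.3% of all probe sets were lower, and 38.2% of those at or above the median signal. In standard cages the 10 choroid plexus genes were higher in cbp+/- than in wild type in 10 of 10 (median 0.24). There 46.3% of all probe sets were lower, and 47.6% of those at or above the median signal. The choroid plexus genes had a level of 1.04 on 1 array, CBP_SC_3, where 15 of the 31 receptor genes were highest in their group. Their level was at most 0.070 in wild-type standard cages, though the receptor genes stood at 0.16 on WT_SC_3. It was at most 0.012 in enriched cbp+/-, where CBP_EE_1 was also highest in its group for 15 of the 31. The medians in wild type and cbp+/- were -0.070 and -0.046 for 8 oligodendrocyte progenitor genes, -0.088 and -0.011 for 8 CA1 genes, -0.051 and -0.0093 for 10 CA3 and CA2 genes, and -0.066 and -0.0020 for 14 interneuron genes. They were 0.064 and 0.026 for 9 microglia genes, 0.0036 and -0.0053 for 8 endothelial genes and -0.051 and -0.11 for 8 thalamus genes. The part of these cell markers in the receptor results was not tested.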

How the data were processed

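Hippocampal RNA was hybridised to 16 Affymetrix Mouse Gene 1.0 ST arrays, each a pool of 4 mice. The authors deposited 1 linear intensity per probe set (28815 probe sets, 22.12 to 16520.86), made by RMA per the submitters' processing notes, with GeneSpring GX named in the labels' protocols; the sources used here give neither the array annotation nor any baseline. RMA compresses small changes and offers no depth, so the number of arrays limits precision. Here log2 of the deposited intensity was taken. Probe sets with 1 symbol in the platform table (21780 probe sets, 19935 genes) were tested; 1605 with several symbols and 5430 unnamed were left out. The fit was limma 3.58.1 in R 4.3.3 (lmFit and eBayes, 4 group means, all 16 arrays, 12 residual degrees of freedom), with Benjamini-Hochberg adjustment over all tested probe sets and a threshold of 0.05. It was tested on simulated data with a change of 1 log2 put in and noise drawn independently for each array. That test does not cover smaller changes or arrays that deviate together, as these do. Nothing in the labels says that arrays of a group were processed apart. Without a block, p-values measure the spread between arrays of a group, each a pool. That spread includes the deviations that same-numbered arrays share. Same-numbered arrays of the genotypes correlated above 0.1 in 8 of 8 pairs within a housing (r 0.26 to 0.77). In 6 of the 8 the same number was the closest match of the wild-type array. Across housings 2 of 6 pairs correlated above 0.1, so the numbers were used to pair genotypes. A replicate block over all groups, which also joins the housings, is given as an alternative only. Values on every array are given for 7 main subunits and, in each comparison, the 4 genes with the smallest p. Other genes named outside this rule, including those called within array set 1, were chosen after their values were seen. The members and the lists were chosen with earlier results of these data known. Alternatives were quantile normalization, a filter on dim probe sets, the mean over probe sets, array weights, array sets and replicate numbers as blocks, values within array sets, and leaving out each array. Promoter windows are from RefSeq (GRCm38.p6).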

Additional observations from a re-analysis of the deposited data

Results flagged for a closer look

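In 5 of 64 groups of 5 arrays, the highest or lowest array stood far from the others relative to the range of its group; chance gives about 1 in 20. Grik3 read 8.48 on WT_SC_3, with the nearest array at 7.90. Grin3a read 7.16 on WT_SC_5, with the nearest at 7.61. The median deviation of the 31 genes was -0.10 on WT_SC_5, with the nearest at 0.11. Cacng5 read 6.87 on CBP_SC_5, with the nearest at 7.18. Grm8 read 7.05 on CBP_SC_3, with the nearest at 7.02, in a group whose whole range was small. None of the 31 tests of a housing difference that differs between the genotypes passed (0 of 31).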

How the results depend on the processing

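No member passed the adjusted threshold with quantile normalization, the dim-probe filter, the mean over probe sets or any array left out. The numbers that passed elsewhere are given with the shares of all probe sets that passed lower and higher in that setting. For wild-type housing they were 14 within array set 1 (13.8% lower, 16.1% higher) and 5 with array weights (7.08%, 17%). With the other array sets as a block there were 2 (1.92%, 1.15%). For housing averaged over genotypes they were 12 within array set 1 (11.6%, 13.5%) and 7 with array weights (8.62%, 19.7%). They were 5 with the other array sets (3.17%, 1.76%), 3 with the replicate block (1.15%, 0.349%) and 2 without array set 4 (1.26%, 3.43%). With array weights they were 2 for cbp+/- housing (1.59%, 3.18%) and 1 for genotype after enrichment (6.67%, 4.69%). The median housing difference turned to 0.071 (cbp+/-) and 0.0033 (averaged) within array set 4. With the replicate block over all groups it was -0.16 in wild type, -0.14 in cbp+/- and -0.15 averaged, and the pairing of genotypes by number changed no call at the adjusted threshold among the 31 genes. Leaving out each array gave medians of -0.167 to -0.0926 in wild type and -0.185 to -0.082 in cbp+/-. Averaged over genotypes they were -0.144 to -0.0968. For genotype they were -0.0657 to 0.0491 in standard cages, -0.0514 to 0.0351 after enrichment and -0.0447 to 0.0078 averaged, and for the interaction -0.0371 to 0.0729. Over all 31 genes, the sign of the wild-type housing difference turned for 9 within array set 1, 8 within array set 4 and 6 with quantile normalization, and that of cbp+/- for 7, 19 and 0. Among the values tracked under every alternative, those of genes named by the rule in its comparisons, 22 signs turned; the cause was not tested. Within array set 4 cbp+/- housing turned to 0.11 (Cacng8), 0.020 (Gria2), 0.087 (Grid1), 0.089 (Grin2a), 0.26 (Grin2b), 0.060 (Grin2d) and 0.052 (Grin3a), averaged housing of Grin2a to 0.013 and the interaction of Cacng3 to -0.055. Cacng8 turned to 0.011 (averaged) and 0.022 (cbp+/-) in the fit blocked on array sets, to 0.055 (averaged) and 0.14 (wild type) within array set 1, and to 0.091 (wild type) with array weights. For genotype after enrichment Cacng2 turned to -0.0074 within array set 1 and without array set 4 and to -0.079 with the mean over probe sets, and Grin2b to -0.075 within array set 1 and without array set 4 and to -0.041 with array weights. The interaction turned to -0.038 for Cacng2 with the mean over probe sets and to -0.063 for Grin2b without array set 4. Over all probe sets, none of which passed in the reported fit, 6513 passed for wild-type housing within array set 1, 5254 with array weights, 670 with the other array sets, 112 without array set 4, 15 with the array sets as a block and 11 with the mean over probe sets. For averaged housing 5470, 6167, 1074, 1021 and 15 passed under the first 5 of these, and 326 with the replicate block. With array weights 1039 passed for cbp+/- housing, 2474 for genotype after enrichment, 152 averaged over housings and 429 for the interaction. With 3 to 5 arrays a group and a median residual SD of 0.20, small changes are beyond these data.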
